A study of Mus musculus with 3 samples.

Results

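The V genes of the T cell receptor alpha and beta chains were read from droplet-based scRNA-Seq of immune cells in the sciatic nerves of neuropathic NOD.AireGW/+ mice. The members are all genes of the count tables whose symbol starts with Trav or Trbv, 163 of 32285 genes: 128 Trav genes and 35 Trbv genes. The series holds 3 libraries of CD45+ cells sorted by flow cytometry after cardiac perfusion and collagenase digestion of the nerves. A single mouse was used for library 1, another for library 2, and the nerves of 2 mice were pooled for library 3. All 4 mice carried the heterozygous Aire GW allele on the NOD background and were neuropathic, and no group without neuropathy or with wild-type Aire is part of the data, so every comparison below is between classes of cells from the same nerves. The study's methods name female mice, and the labels give neither sex nor age.

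A T cell receptor chain is assembled in the thymus by joining 1 of many V genes to a J segment (and, in the beta chain, a D segment) and then to a constant region, so each T cell and its descendants express mainly 1 alpha and 1 beta V gene. V genes shape the parts of the receptor that mostly touch the presenting molecule, whereas the junction of V and J, called CDR3, carries most of the fine specificity. When a single T cell divides many times in inflamed tissue, its V genes become common among the cells found there. The counts used here give the V gene of a cell but not its CDR3, so cells that shared an alpha and a beta V gene were not shown to be 1 clone, and the separate receptor sequencing of the study is not used here.

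The V genes that led the CD8 and CD4 classes in single libraries are shown first, since the results turn on them. Each run is the 3′ end of the coding sequence in the GRCm38 annotation (GENCODE M21) of the C57BL/6J reference, whose alleles can differ from those of NOD mice. Capitals run from the last in-frame cysteine codon to the end of the V gene, where the junction that forms CDR3 begins. In Trbv1, which has 11 capitals, another in-frame cysteine codon (tgc) stands just before them. The capitals of Trbv1 may therefore not mark the start of CDR3. All lie on the plus strand, and each was printed over the last 240 coding bases. Trav3-1 with Trbv19 was the most frequent pair in CD8 cells of library 1, where Trav12-2 and Trbv12-1 were often found in the same cells. Trav3-3 with Trbv5 led CD8 cells of library 2. Trav5-4 with Trbv1 and Trav9-1 with Trbv5 led CD4 Foxp3- cells of libraries 2 and 1.
Trav3-1 (chr14:52580665-52581213): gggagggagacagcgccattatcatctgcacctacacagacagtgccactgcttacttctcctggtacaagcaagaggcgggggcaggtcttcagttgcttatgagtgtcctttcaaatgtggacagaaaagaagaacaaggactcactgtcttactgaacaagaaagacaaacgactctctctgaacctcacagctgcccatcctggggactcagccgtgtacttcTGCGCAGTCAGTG
Trbv19 (chr6:41178375-41179048): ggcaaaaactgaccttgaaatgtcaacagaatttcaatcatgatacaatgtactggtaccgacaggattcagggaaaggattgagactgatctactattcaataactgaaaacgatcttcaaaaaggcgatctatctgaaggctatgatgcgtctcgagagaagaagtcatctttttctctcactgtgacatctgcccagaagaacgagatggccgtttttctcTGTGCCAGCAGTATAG
Trav12-2 (chr14:53616315-53616914): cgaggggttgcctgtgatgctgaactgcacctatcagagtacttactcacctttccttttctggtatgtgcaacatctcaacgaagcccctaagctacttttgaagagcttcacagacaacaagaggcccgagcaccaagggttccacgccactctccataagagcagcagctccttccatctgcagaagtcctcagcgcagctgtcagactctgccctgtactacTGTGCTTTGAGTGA
Trbv12-1 (chr6:41113550-41114067): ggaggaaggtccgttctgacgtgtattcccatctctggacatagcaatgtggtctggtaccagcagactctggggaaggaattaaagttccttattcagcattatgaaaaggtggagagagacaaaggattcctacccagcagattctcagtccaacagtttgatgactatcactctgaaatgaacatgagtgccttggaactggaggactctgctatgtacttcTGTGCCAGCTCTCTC
Trav3-3 (chr14:53665929-53666506): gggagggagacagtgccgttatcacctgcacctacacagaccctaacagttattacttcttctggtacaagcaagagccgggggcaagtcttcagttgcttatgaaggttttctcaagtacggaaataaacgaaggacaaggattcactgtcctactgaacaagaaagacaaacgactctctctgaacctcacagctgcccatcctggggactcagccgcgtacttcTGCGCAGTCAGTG
Trbv5 (chr6:41062332-41062803): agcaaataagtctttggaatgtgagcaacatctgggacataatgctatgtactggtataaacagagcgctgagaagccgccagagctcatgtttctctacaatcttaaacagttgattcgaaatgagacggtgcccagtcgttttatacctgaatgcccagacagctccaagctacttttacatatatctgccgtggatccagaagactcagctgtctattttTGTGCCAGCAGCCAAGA
Trav5-4 (chr14:53704007-53704514): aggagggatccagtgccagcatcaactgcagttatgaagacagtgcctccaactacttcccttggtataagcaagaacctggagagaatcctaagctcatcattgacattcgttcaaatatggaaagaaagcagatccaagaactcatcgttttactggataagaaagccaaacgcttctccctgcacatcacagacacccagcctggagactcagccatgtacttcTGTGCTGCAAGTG
Trbv1 (chr6:40891229-40891885): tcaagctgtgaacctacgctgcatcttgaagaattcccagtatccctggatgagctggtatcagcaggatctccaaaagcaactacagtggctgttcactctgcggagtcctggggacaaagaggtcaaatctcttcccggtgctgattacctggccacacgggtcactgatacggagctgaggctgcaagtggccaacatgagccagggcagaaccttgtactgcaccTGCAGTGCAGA
Trav9-1 (chr14:53488045-53488567): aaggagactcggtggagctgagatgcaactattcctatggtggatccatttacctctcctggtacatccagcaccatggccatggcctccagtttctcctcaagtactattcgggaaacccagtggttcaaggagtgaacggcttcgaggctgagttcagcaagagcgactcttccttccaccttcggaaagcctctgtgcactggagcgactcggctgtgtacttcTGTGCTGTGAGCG
Trav3-1 and Trav3-3, the leading alpha genes of CD8 cells in libraries 1 and 2, belong to 1 family and differed by 28 edits over these 240 bases. Trav3-1 and Trav12-2, which often occurred in the same cells of library 1, differed by 108 edits, and Trbv19 and Trbv12-1 by 112.

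The Trav members lie between 52427928 and 53977678 on chromosome 14, and the Trbv members between 40891229 and 41558452 on chromosome 6. In T cells 106 members had at least 1 UMI (unique molecular identifier, a count of captured RNA molecules) and 57 had none. The 57 were 47 Trav and 10 Trbv genes. Of the 20 Trav genes annotated as pseudogenes 14 had no UMI, and of the 13 Trbv pseudogenes 10 had none. The Trav locus of this reference holds repeated blocks whose genes carry a d or an n in their names. The 55 Trav genes with neither letter took 73.1%, 76.0% and 74.3% of the Trav UMIs of libraries 1, 2 and 3. Reads that fit several genes equally well are not counted in such tables, and 38 Trav genes shared every 90-base stretch of their transcript with another member. Of those 38 genes 31 had no UMI, against 6 of the 23 Trav genes that shared no stretch. Their counts are therefore uncertain, whereas none of the 35 Trbv genes shared a stretch with another. Trav3-3 shared 12.4% of its stretches and Trav9-1 30.1%, in each case with the d copy of the same name.

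T cells were cells with at least 1 UMI of Cd3d, Cd3e or Cd3g, which encode the signalling chains of the receptor. There were 3361, 5265 and 1277 of them in libraries 1, 2 and 3, with medians of 3926, 3531 and 1741 UMIs per cell, out of 3848, 8256 and 1533 cells kept. They fell into 4 main classes by UMIs of Cd4, Cd8a, Cd8b1 and Foxp3, none of which is a V gene. CD8 cells (Cd8a or Cd8b1, no Cd4) numbered 1121, 1262 and 267. CD4 Foxp3- cells (Cd4, no Cd8 and no Foxp3) numbered 694, 1196 and 189. Foxp3+ cells (Foxp3, no Cd8, with or without Cd4), which include regulatory T cells, numbered 441, 693 and 113. Cells with none of the lineage genes, called Cd4- Cd8- cells, numbered 760, 1828 and 699. Within the CD8 class, 331, 234 and 16 cells had Havcr2 (encoding the inhibitory receptor TIM-3) and 481, 563 and 135 had Gzmk (encoding granzyme K) without Havcr2. A further 345, 286 and 9 T cells had both Cd4 and Cd8 UMIs and were left out, with medians of 6517, 12158 and 2600 UMIs.

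The markers fit these names for 3 of the 4 main classes, though CD8 cells also held genes of the gamma and delta chains. Trac, the alpha chain constant gene, was found in 39.3% to 58.7% of CD8 cells, 37.0% to 56.8% of CD4 Foxp3- cells and 37.2% to 65.1% of Foxp3+ cells, and Ikzf2, which marks regulatory T cells, in 62.8% to 78.7% of Foxp3+ cells. In Cd4- Cd8- cells Trac was found in only 23.0%, 32.2% and 26.0%, while 17.2%, 13.8% and 6.15% had Trdc, the constant gene of the delta chain, and 12.1%, 7.88% and 4.72% had Ncr1, a natural killer cell gene. That class is therefore called by its rule and not as a T cell type. It held 22.6%, 34.7% and 54.7% of the T cells of libraries 1, 2 and 3, the last being the shallowest. A cell can also lack a UMI of a gene it expresses, so the class may hold CD4 and CD8 T cells. Even in Foxp3+ cells Cd4 was found in only 66.9%, 47.2% and 22.1%. How many such cells the class holds was not tested. UMIs of macrophage genes were common in all classes of library 2, where C1qa was found in 21.6% to 34.0% of the cells of the 4 main classes, against 0.892% to 2.16% in library 1 and 0% to 1.498% in library 3. C1qa was also found in 16.03% of B cells of library 2. Barcodes shared between libraries numbered 36, 7 and 14 for libraries 1 and 2, 1 and 3, and 2 and 3.

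V genes were detected in most T cells of the CD4, CD8 and Foxp3 classes. A Trav UMI was present in 73.1% ± 3.29 (SD, n = 3 libraries) of CD8 cells, 77.4% ± 7.73 of CD4 Foxp3- cells and 78.9% ± 10.3 of Foxp3+ cells. A Trbv UMI was present in 81.8% ± 3.70, 83.1% ± 6.78 and 82.6% ± 12.5 of the same classes. The 3 classes overlapped in both shares. Cd4- Cd8- cells had a Trav UMI in 40.3%, 48.5% and 49.6% and a Trbv UMI in 46.7%, 58.6% and 64.4% of cells in libraries 1, 2 and 3, each below the same library's share in the other 3 classes. Thinned to 1000 UMIs per cell, the shares with a Trav UMI were 43.9% ± 5.20, 56.1% ± 12.9 and 52.6% ± 6.95 in CD8, CD4 Foxp3- and Foxp3+ cells and 31.0% ± 6.25 in Cd4- Cd8- cells, which were again lowest in each library. With 3 libraries a permutation test of signs cannot go below p = 0.25, so these shares are described without a test.

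B cells (Cd79a, no Cd3 genes), which do not assemble these receptors, gave the background. In library 1 a Trav UMI was present in 17 of 236 B cells (7.20%, exact 95% interval 4.25 to 11.3) and a Trbv UMI in 40 (16.9%, interval 12.4 to 22.4). In library 2 the counts were 3 and 0 of 368 B cells, and in library 3 they were 0 and 1 of 81. A count of 0 allows a share of up to 0.815% in library 2 and 3.70% in library 3, taken as 3 cells of the total, and the exact intervals reach 0.997% and 4.45%. Median depths were 3948.5, 3142 and 1710 UMIs in B cells and 4251, 3938.5 and 2100 in CD8 cells. The most frequent V gene in B cells of library 1 was Trbv19, in 18 of 236 cells (7.63%), and the same gene was the most used in CD8 cells of that library, so V genes seen with 1 UMI in library 1 can be free RNA. Intervals here cover counting error only.

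Each cell was then assigned the Trav and the Trbv gene with the most UMIs in it, ties left out. CD4 Foxp3- cells used a wide set of V genes. The beta gene used most on average was Trbv13-2, in 12.1%, 16.5% and 20.9% of assigned CD4 Foxp3- cells of libraries 1, 2 and 3. In library 1 Trbv5 was ahead of it, with 14.02%. Trbv19 (9.57%, 11.4% and 8.21%), Trbv13-1 (12.5%, 10.4% and 5.97%) and Trbv1 (6.32%, 12.1% and 9.70%) followed, and these 3 overlapped across libraries. The leading alpha gene was Trav5-4, in 8.04%, 14.04% and 10.0% of the assigned cells, the highest share in each library, though Trav4-3 was close in library 1, at 7.85%. Foxp3+ cells had the same leading genes by their means, Trbv13-2 at 13.6% ± 2.82 and Trav5-4 at 10.6% ± 2.01 (n = 3), and so did Cd4- Cd8- cells, at 13.6% ± 3.02 and 6.91% ± 2.07. In single libraries other genes led, such as Trbv16 in Foxp3+ cells of library 1, at 15.01%.

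CD8 cells differed far more between libraries. Trbv19 was assigned in 49.3% of CD8 cells with an assigned Trbv in library 1 but in 9.83% and 10.0% of those in libraries 2 and 3. Library 1 thus stood alone for this gene, while the other 2 libraries sat within the range of CD4 Foxp3- cells. Trav3-1 was assigned in 27.0% of CD8 cells of library 1 and in 0.825% and 1.85% of those of libraries 2 and 3. Trav3-3 was the alpha gene of 27.0% of CD8 cells of library 2, against 9.41% and 5.56% in libraries 1 and 3. Trav12-2 was found in 11.7%, 1.89% and 7.41% of them. The means of these genes over libraries, such as 23.1% ± 22.8 for Trbv19, therefore describe no single library.

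Havcr2+ CD8 cells carried the strongest preference, in library 2 mainly for an alpha gene. In library 1 Trbv19 was the beta gene of 79.4% of assigned Havcr2+ cells, 38.5% of Gzmk+ Havcr2- cells and 26.0% of CD8 cells with neither gene. In library 2 Trav3-3 was the alpha gene of 95 of 190 Havcr2+ cells, 27.6% of Gzmk+ Havcr2- cells and 9.77% of those with neither. Both genes ran in the same order across the 3 CD8 states, each in 1 library. The beta genes of library 2 were more even. There the leading Trbv took 20.2% of Havcr2+, 13.6% of Gzmk+ Havcr2- and 16.1% of CD8 cells with neither, and 16.5% of CD4 Foxp3- cells. The Havcr2+ cells of library 2 were deeper, with a median of 9823 UMIs against 3560 in Gzmk+ Havcr2- cells. Lyz2, a monocyte gene, was found in 54.7% of them against 29.3%, and C1qa in 41.0% against 16.3%. Without cells with Cd79a, Lyz2 or C1qa UMIs, the leading Trav took 55.3% of 85 assigned Havcr2+ cells of library 2. The leading Trbv then took 29.2% of 72. The part of depth and of these genes was not tested. Library 3 held 12 Havcr2+ cells with an assigned Trav and 15 with an assigned Trbv, too few to place it in that order.

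**Figure D1:**
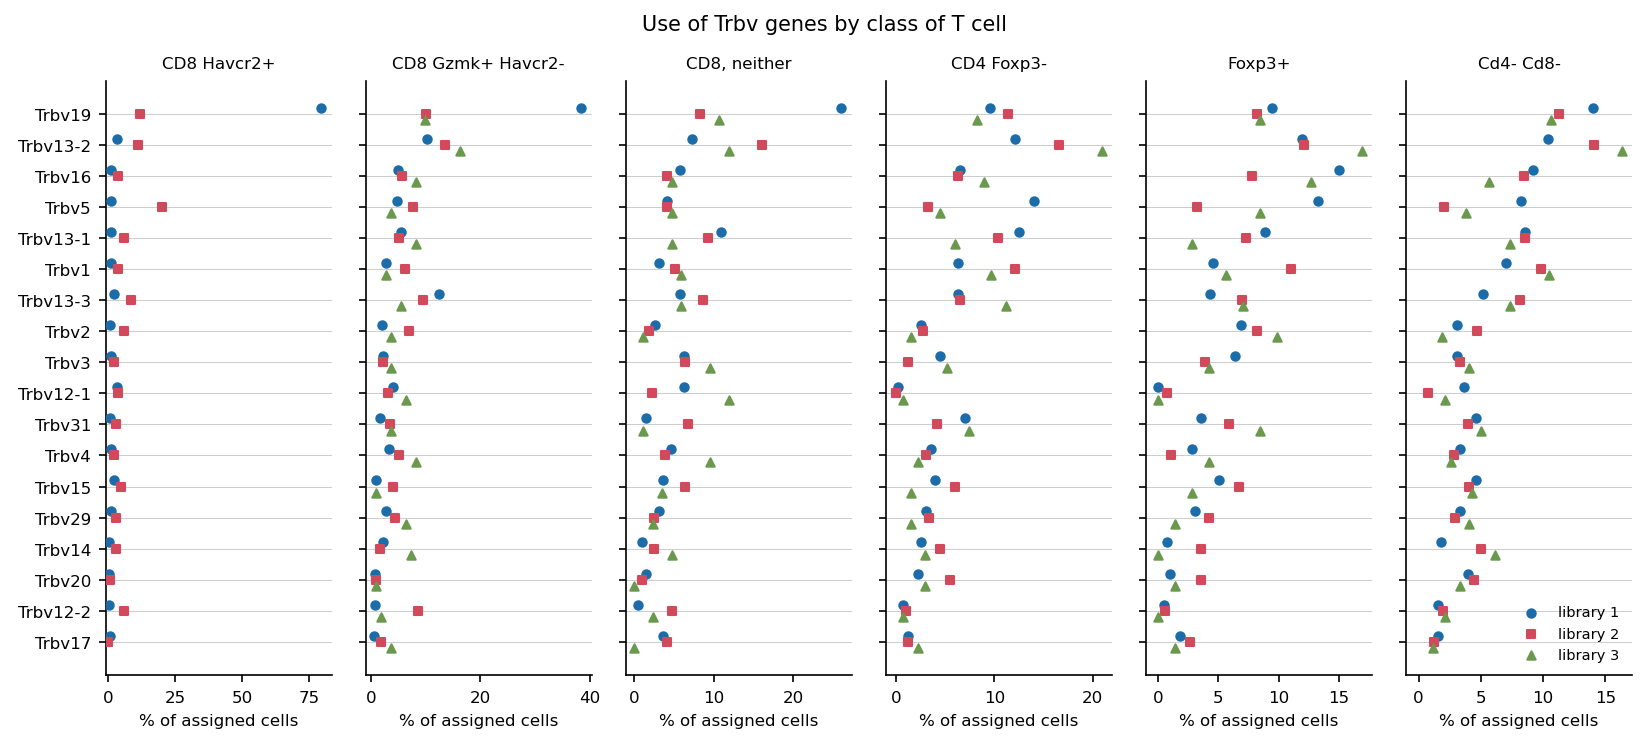
Use of the 18 Trbv genes with the highest mean share in any class. Each panel is a class, each row a gene, and the x axis gives the percent of cells with an assigned Trbv in each library (symbols), on an axis of its own per panel. Havcr2+ CD8 cells of library 3 are not drawn, since only 15 were assigned. Trbv19 of library 1 stands at 79.4% in Havcr2+ CD8 cells and at 9.57% in CD4 Foxp3- cells.

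**Figure D2:**
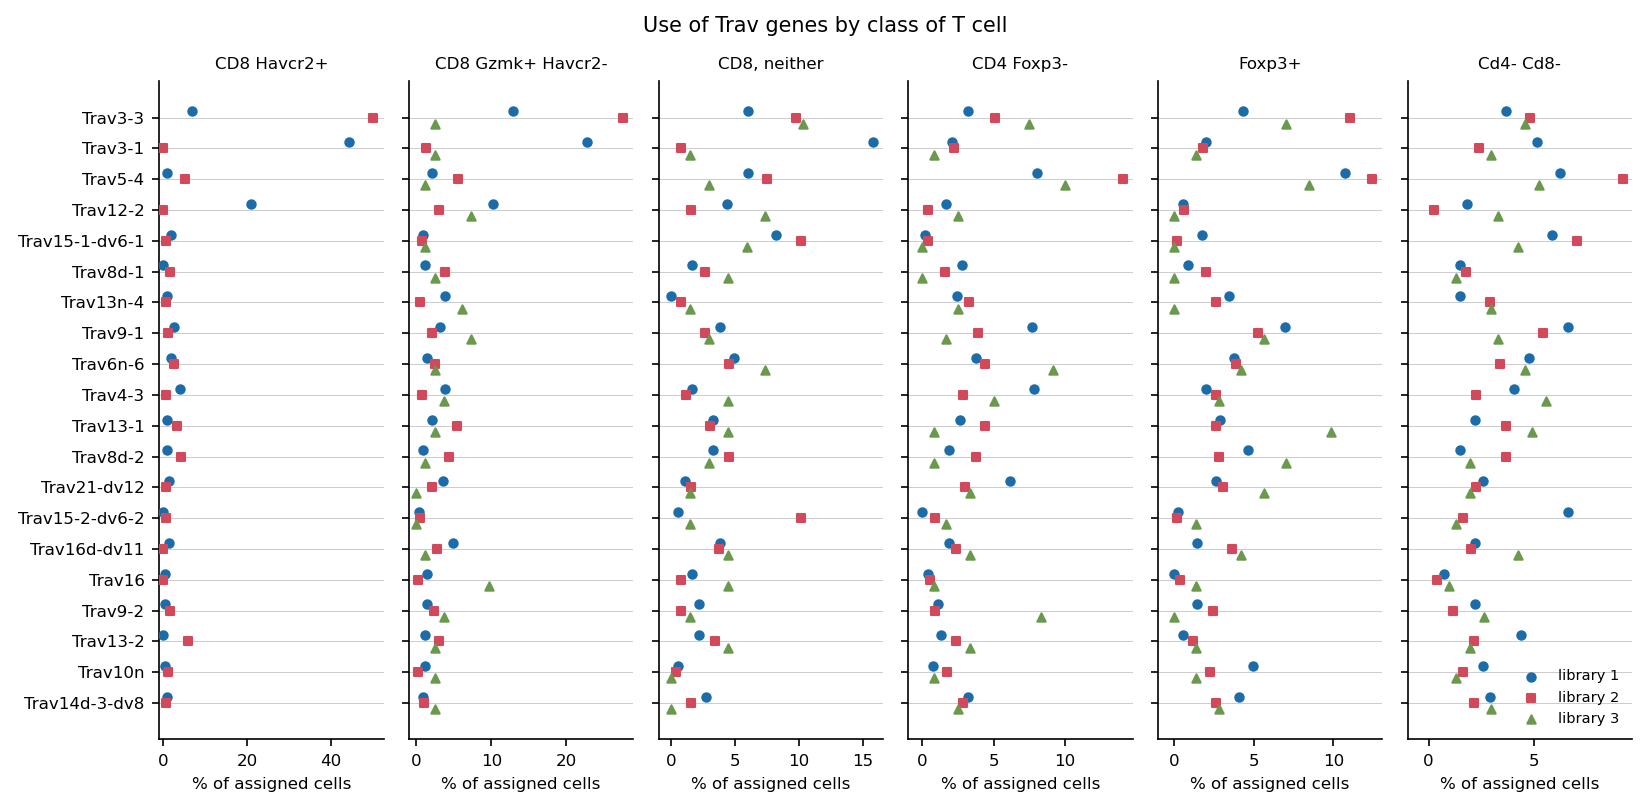
Use of the 20 Trav genes with the highest mean share in any class, drawn as in the plot of Trbv genes, with the percent of cells with an assigned Trav on the x axes. Trav3-1 and Trav12-2 of library 1 and Trav3-3 of library 2 stand apart in CD8 cells. The highest mean share is 10.7% or less in CD4 Foxp3-, Foxp3+ and Cd4- Cd8- cells. In single libraries the leading gene reached up to 14.04% in CD4 Foxp3- and 12.4% in Foxp3+ cells, both of library 2.

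To put a number on this concentration, the chance that 2 cells of a class drawn from 1 library shared both V genes was computed. In Havcr2+ CD8 cells it was 22.8% in library 1 (196 cells) and 5.69% in library 2 (154 cells). In Gzmk+ Havcr2- CD8 cells it was 4.61%, 1.501% and 0.684% in libraries 1, 2 and 3, and in CD8 cells with neither gene 0.669%, 0.874% and 0.621%. CD4 Foxp3- cells had 0.449%, 0.634% and 0.491%, Foxp3+ cells 0.573%, 0.494% and 0.580%, and Cd4- Cd8- cells 0.333%, 0.350% and 0.226%. The CD8 class as a whole was above the 3 other classes in every library, at 6.83%, 1.59% and 0.693%. In library 3 the distance to Foxp3+ cells was small. With cells thinned to 1000 UMIs, CD8 cells had 4.37%, 1.07% and 0.699% and CD4 Foxp3- cells 0.395%, 1.04% and 0.605%, so only library 1 kept a wide gap at equal depth. Havcr2+ CD8 cells were then at 15.4% (76 cells) and 4.62% (26 cells) in libraries 1 and 2. They were at 27.1% and 2.91% when only V genes with at least 2 UMIs in a cell were assigned. Without cells with Cd79a, Lyz2 or C1qa UMIs they were at 23.9% (172 cells) and 8.99% (65 cells).

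**Figure D3:**
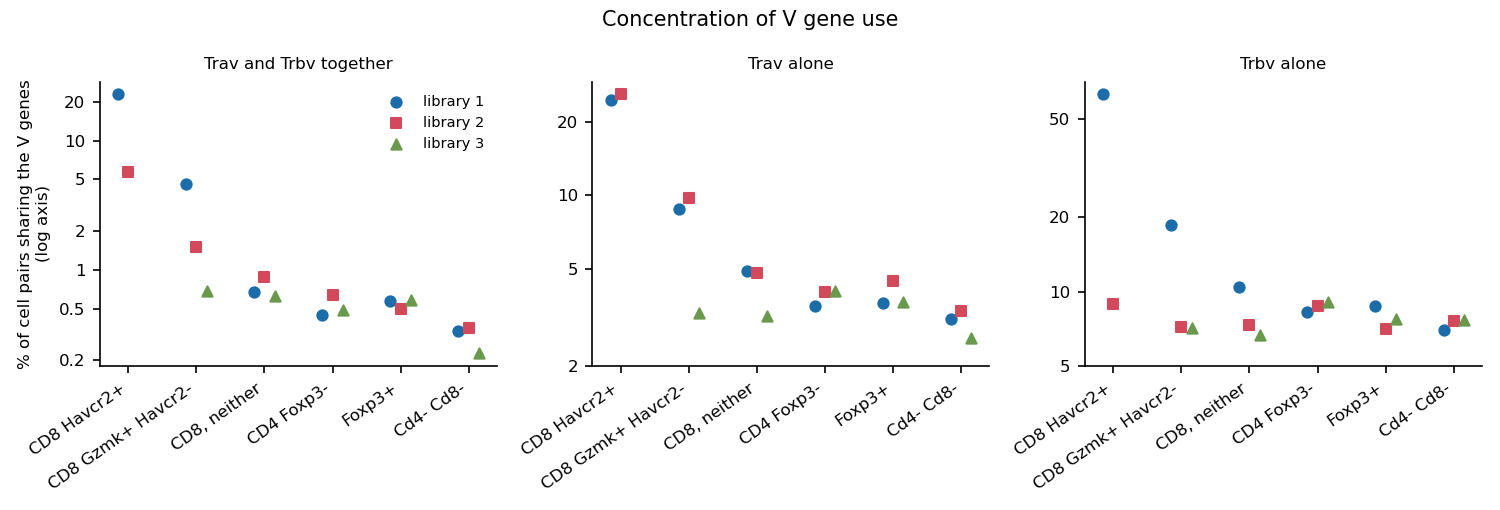
Concentration of V gene use: the percent of pairs of cells that share the Trav and Trbv gene together, the Trav gene or the Trbv gene (y axes, log scale), by class (x axes) and library (symbols). Havcr2+ CD8 cells of library 3 are not drawn. In the panel for both genes, Havcr2+ CD8 cells reach 22.8% in library 1 and 5.69% in library 2, and CD4 Foxp3- cells lie between 0.449% and 0.634%.

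The concentration of CD8 cells in library 1 came with 2 pairs that share Trbv19. Trav3-1 with Trbv19 was found in 149 of 649 CD8 cells with both genes assigned (23.0%, interval 19.8 to 26.4), where the shares of the 2 genes taken singly would give 78.5 cells. It made up 85 of 196 Havcr2+ cells (43.4%), 54 of 311 Gzmk+ Havcr2- cells (17.4%) and 10 of 142 CD8 cells with neither (7.04%). Outside the CD8 class of library 1 it was rare: 1 of 466 CD4 Foxp3- cells, 2 of 198 Cd4- Cd8- cells and 0 of 311 Foxp3+ cells of library 1, 1 of 658 CD8 cells of library 2, and 0 of 131 CD8 cells and 2 of 211 Cd4- Cd8- cells of library 3. Trav12-2 with Trbv19 was the second pair, with 73 cells (11.2%, interval 8.92 to 13.9), 39 of them Havcr2+.

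Many CD8 cells of library 1 had UMIs of both alpha genes. Of 316 CD8 cells with Trav3-1, 156 also had Trav12-2 (49.4%, interval 43.7 to 55.02), against 75 of the 805 without Trav3-1 (9.32%), and 52 cells had at least 2 UMIs of each. Trbv19 was present in 267 of the 316 cells with Trav3-1 (84.5%) and in 204 of 231 with Trav12-2 (88.3%). B cells of that library had Trav3-1 in 2 and Trav12-2 in 0 of 236 cells, a share of up to 1.27% for the count of 0. A T cell can carry a productive alpha chain from each chromosome, and droplets can also hold more than 1 cell. Which of these gave both genes was not tested.

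Library 2 had other leading pairs. Trav3-3 with Trbv5 was found in 57 of 658 CD8 cells (8.66%, interval 6.63 to 11.1), made up of 34 of 154 Havcr2+ cells (22.1%), 17 of 317 Gzmk+ Havcr2- cells (5.36%) and 6 of 187 with neither (3.21%). It was found in 0 of 669 CD4 Foxp3- cells of that library. Trav6-2 with Trbv12-2 was found in 31 CD8 cells (4.71%), where single shares would give 3.28, and 45 of the 61 CD8 cells with Trav6-2 had Trbv12-2. Unlike the first pair it was not concentrated in Havcr2+ cells: 7 of its 31 cells had Havcr2 (22.6%, interval 9.59 to 41.1), against 147 of the 627 other paired cells (23.4%, interval 20.2 to 27.0). For Trav3-3 with Trbv5 those shares were 34 of 57 (59.6%, interval 45.8 to 72.4) and 120 of 601 (20.0%, interval 16.8 to 23.4). For Trav3-1 with Trbv19 in library 1 they were 85 of 149 (57.0%, interval 48.7 to 65.1) and 111 of 500 (22.2%, interval 18.6 to 26.1). Those 500 include the 73 cells assigned Trav12-2 with Trbv19, of which 39 had Havcr2. Library 3 had no pair above 5 of 131 CD8 cells, the number reached by Trav12-2 with Trbv13-2.

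CD4 Foxp3- cells had smaller leading pairs, different in each library. In library 2 Trav5-4 with Trbv1 was found in 33 of 669 cells (4.93%, interval 3.42 to 6.86), where single shares would give 12.4. The same pair was seen in 14 of 591 Cd4- Cd8- cells (2.37%) and 5 of 406 Foxp3+ cells of that library. In library 1 the leading pair was Trav9-1 with Trbv5, in 12 of 466 cells (2.58%, interval 1.34 to 4.46), and in library 3 a set of 3 pairs had 3 of 93 cells each. In Foxp3+ cells the most frequent pair of library 1 was Trav7d-2 with Trbv3, in 9 of 311 cells. In library 2 Trav3-3 with Trbv19 and Trav5-4 with Trbv19 were tied at 11 of 406, and in library 3 several pairs were tied at 2 of 46. Trav5-4 with Trbv19 was also the second pair of CD4 Foxp3- cells of library 2, in 14 of 669.

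**Figure D4:**
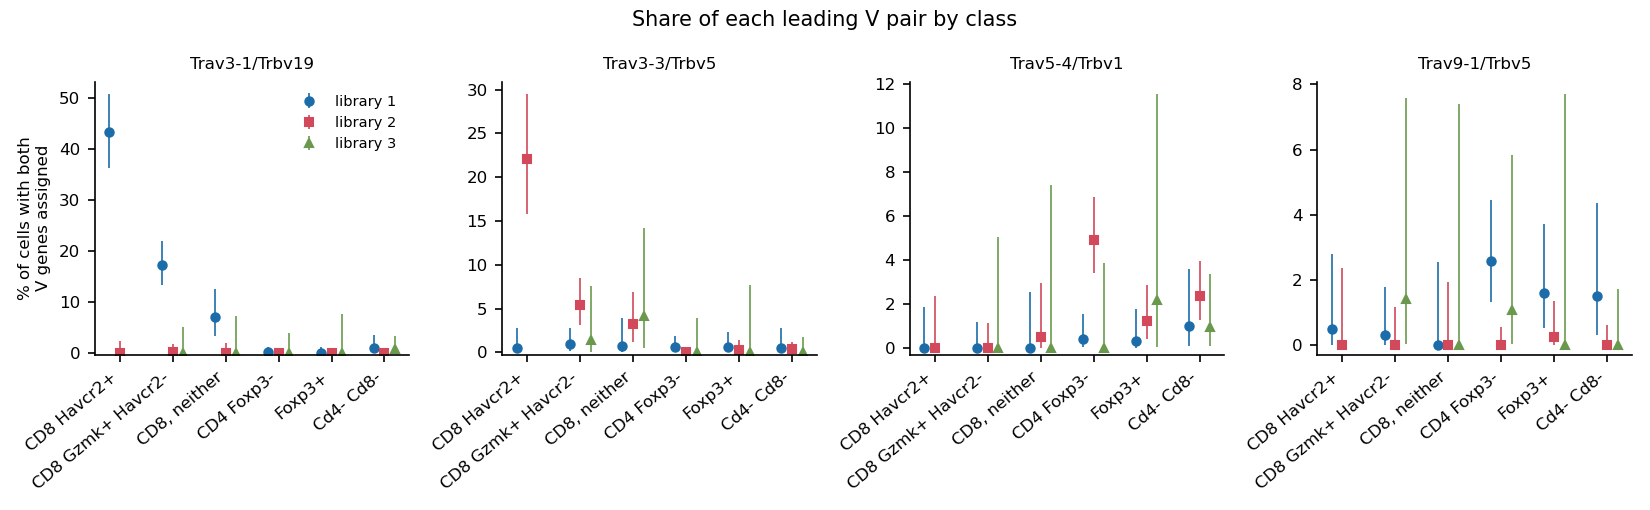
Share of 4 leading V pairs by class. The y axes give the percent of cells with both V genes assigned that carry the pair, the symbols mark libraries, the bars are exact 95% intervals, and classes with fewer than 40 such cells in a library are not drawn. Trav3-1/Trbv19 is at 43.4% of Havcr2+ CD8 cells of library 1, and Trav5-4/Trbv1 at 4.93% of CD4 Foxp3- cells of library 2.

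V gene levels in the summed UMIs of CD8 and CD4 Foxp3- cells were compared over the 3 libraries, to ask which V genes the 2 classes used differently. Of the 75 V genes with enough counts, 21 passed (edgeR quasi-likelihood test with library as a block, Benjamini-Hochberg adjusted p below 0.05 over 11458 genes), 4 higher and 17 lower in CD8 cells. Among all genes tested 12.1% passed, 5.34% higher and 6.76% lower. The median log2 difference was -0.60 over the 75 V genes and 0.01 over all genes. The remaining members had too few counts to be tested. The levels of V genes within 1 sum are tied to each other, since each cell shows mainly 1 gene of each kind. In bulk sums, fewer cells with a gene and less RNA per cell cannot be told apart.

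Trbv12-1 was the clearest of the higher genes. Its level in CD8 cells was 84.8, 16.1 and 81.7 CPM (the UMIs of the gene scaled to the total UMIs of the sum) in libraries 1, 2 and 3, and 7.85, 2.95 and 2.58 CPM in CD4 Foxp3- cells. The groups did not overlap, and CD8 cells were higher by 3.13 ± 0.37 (SE) on the log2 scale (adjusted p = 0.000211, edgeR). The CD4 Foxp3- value of library 3 rests on 1 UMI. In library 1, 218 of the 259 CD8 cells with Trbv12-1 also had Trbv19 (84.2%), with means of 1.92 and 11.6 UMIs of the 2 genes in cells that had both. Trbv12-1 was the assigned gene of 4.27%, 2.93% and 8.10% of CD8 cells and of 0.171%, 0% and 0.746% of CD4 Foxp3- cells. In library 1, 41 of the 594 CD8 cells without Trbv19 had Trbv12-1 (6.90%), against 2.12% of B cells.

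Trav15-1-dv6-1, one of the V genes that can join either the alpha or the delta chain, was at 12.9, 13.2 and 29.4 CPM in CD8 cells and 2.91, 1.62 and 2.58 CPM in CD4 Foxp3- cells. It was higher in CD8 cells of each library, by 2.70 ± 0.49 (log2, adjusted p = 0.00395, edgeR). Trav12-2 was at 58.5, 5.89 and 34.3 against 7.56, 1.03 and 18.03 CPM (log2 2.47 ± 0.55, adjusted p = 0.0115, edgeR), higher in 3 of 3 libraries. Trav3-3 was at 64.8, 206 and 57.2 against 30.8, 30.6 and 82.4 CPM (log2 1.63 ± 0.42, adjusted p = 0.0252, edgeR), higher in 2 of 3. Each of these last 2 calls was lost when 1 library was left out. Without library 1, Trav12-2 had a log2 difference of 1.81 and, in the edgeR test, adjusted p = 0.0742. Without library 2, Trav3-3 had a log2 difference of 0.60 and adjusted p = 0.387 (edgeR).

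Trbv19 itself did not pass. It was at 622, 70.0 and 106 CPM in CD8 cells and 106, 87.4 and 85.0 CPM in CD4 Foxp3- cells, and its log2 difference of 1.18 had adjusted p = 0.228 (edgeR). Only library 1 was high.

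Lower in CD8 cells were 15 Trav and 2 Trbv genes, with log2 differences from -3.10 to -1.24. Trav5-4, the alpha gene most used by CD4 Foxp3- cells, was at 19.3, 30.5 and 19.6 CPM in CD8 cells and 64.0, 62.2 and 87.6 CPM in CD4 Foxp3- cells. It fell by 1.43 ± 0.23 on the log2 scale (adjusted p = 0.00201, edgeR), and the groups did not overlap. Trbv20 was at 8.48, 8.05 and 6.54 against 26.7, 39.1 and 30.9 CPM (log2 -1.97 ± 0.31, adjusted p = 0.0015, edgeR), again without overlap. Trav7d-3 was at 2.59, 2.73 and 1.63 against 15.99, 9.89 and 12.9 CPM (log2 -2.26 ± 0.31, adjusted p = 0.000624, edgeR). Trav7-5 and Trav7d-4, of the same family, were also lower in 3 of 3 libraries, at log2 -2.19 and -1.89. Trbv1 was at 38.7, 79.2 and 63.7 against 158, 187 and 134 CPM (log2 -1.53 ± 0.38, adjusted p = 0.0216, edgeR). Of the 17 lower genes 13 were lower in every library.

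**Figure D5:**
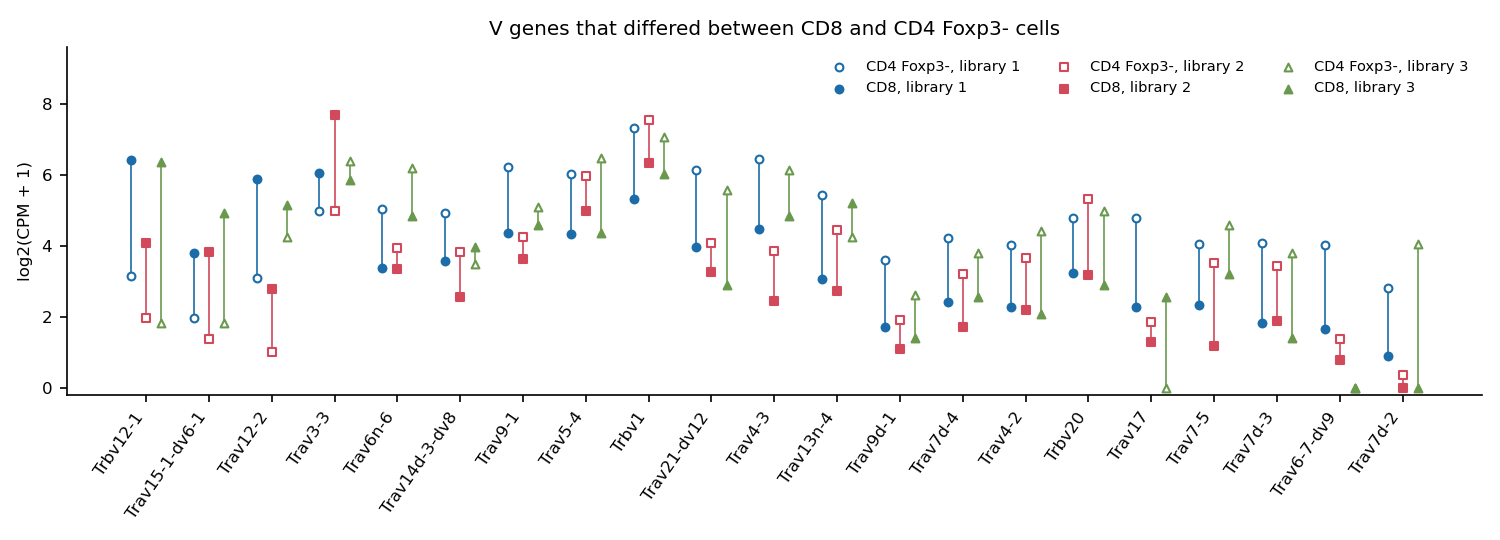
The 21 V genes that passed the test between CD8 and CD4 Foxp3- cells, ordered by log2 difference. The y axis gives log2(CPM + 1) of the summed UMIs. Filled symbols are CD8 cells, open symbols CD4 Foxp3- cells, and a line joins the 2 values of 1 library. Trbv12-1 and Trav15-1-dv6-1 at the left are higher in CD8 cells in all 3 libraries, and Trav5-4, Trbv20 and Trav7d-3 are lower in all 3.

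Other genes of the receptor differed between the 2 classes as well. Of 20 genes of the receptor complex and its signalling, 3 were higher in CD8 cells (Cd3d, Fyn and Themis, which is needed for thymic selection) and 3 lower (Lcp2, Sla and Cd5, the last a brake on receptor signalling), with a median log2 difference of 0.05 beside 0.01 over all genes. Cd5 was at 177, 83.5 and 103 CPM in CD8 cells and 392, 192 and 278 CPM in CD4 Foxp3- cells. Of 7 gamma delta receptor genes 5 were higher in CD8 cells, with Trgv2 at 267, 246 and 240 against 29.9, 19.3 and 18.03 CPM and Trdc at 15.96, 38.4 and 16.3 against 4.07, 6.94 and 0. Macrophage genes moved as well: 5 of 5 were lower in CD8 cells, with summed levels of 46.9, 3629 and 22.9 CPM in CD8 cells and 159, 7714 and 10.1 CPM in CD4 Foxp3- cells, so that library 3 ran the other way. Without cells with Cd79a, Lyz2 or C1qa UMIs, 33 of 71 V genes passed, 4 higher and 29 lower in CD8 cells. The part of macrophage genes in the V gene differences was not tested.

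Between Foxp3+ and CD4 Foxp3- cells 2 of 75 V genes passed, both higher in Foxp3+ cells, where 3.49% of all genes passed, 1.79% higher and 1.7% lower. The median log2 difference was -0.18 over the V genes tested and -0.01 over all genes. Trbv2 was at 46.6, 40.9 and 80.2 CPM in Foxp3+ cells and 17.2, 14.6 and 18.03 CPM in CD4 Foxp3- cells. The groups did not overlap (log2 1.57 ± 0.29, adjusted p = 0.0115, edgeR), and without library 3 the call was lost at a log2 difference of 1.49 with adjusted p = 0.124. Trav10n was at 32.6, 10.9 and 3.49 against 4.94, 4.58 and 2.58 CPM (log2 1.90 ± 0.47, adjusted p = 0.0455, edgeR) and rested mainly on library 1, since without it the log2 difference was 1.17 with adjusted p = 0.411, and its library 3 values are 1 UMI each. Without library 3, 0 V genes passed in the edgeR test, although 13 of 75 had an unadjusted p below 0.05; DESeq2 on all libraries called 1. Of the receptor complex genes, Themis was lower in Foxp3+ cells, at 12.3, 9.57 and 17.4 against 55.5, 32.2 and 72.1 CPM.

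In Cd4- Cd8- cells 11 of 75 V genes passed against CD4 Foxp3- cells, 10 lower and 1 higher, where 3.85% of all genes passed, 1.47% lower and 2.37% higher. The median log2 difference over the V genes tested was -1.02, beside 0.02 over all genes, so a call near that value is no larger than the difference of the V genes at large. The CD4 Foxp3- sums are the same ones as in the comparison with CD8 cells. Trav5-4 was at 22.7, 31.5 and 35.8 CPM in Cd4- Cd8- cells (log2 -1.19 ± 0.23, adjusted p = 0.0121, edgeR), below CD4 Foxp3- cells in each library. Trbv13-2 was at 34.6, 78.9 and 161 against 158, 134 and 415 CPM (log2 -1.36 ± 0.28, adjusted p = 0.0145, edgeR). Without library 3 neither passed, at log2 differences of -1.20 and -1.38 with adjusted p = 0.0756 and 0.0843 (edgeR). Of the 20 receptor complex genes 7 were lower and none higher, among them Cd247, which encodes the zeta chain, at 136, 181 and 200 against 420, 278 and 340 CPM. Natural killer genes were higher in 4 of 4 cases, with summed levels of 452, 188 and 218 against 61.2, 34.5 and 10.1 CPM. The count of V genes passing was 3 without library 3 and 28 without library 2.

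The 1 V gene that was higher in Cd4- Cd8- cells was again Trav15-1-dv6-1, at 20.1, 14.2 and 23.4 CPM (log2 2.94 ± 0.48, adjusted p = 0.00419, edgeR). Without library 3 its log2 difference was 2.95 with adjusted p = 0.051 (edgeR). All 7 gamma delta genes were higher there too, with Trdc at 63.5, 62.4 and 66.2 CPM and Trdv4 at 130, 124 and 10.9 CPM. In Cd4- Cd8- cells with Trav15-1-dv6-1, Trdc was found in 22 of 30, 44 of 66 and 6 of 16 cells of libraries 1, 2 and 3, each above the share of 17.2%, 13.8% and 6.15% in the whole class. In CD8 cells with this gene Trdc was found in 19 of 45, 47 of 55 and 0 of 7, and the 7 cells of library 3 are too few to compare.

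Splitting the Cd4- Cd8- cells by Trdc separated V gene use. Cells with Trdc had a Trbv UMI in 32.8%, 23.3% and 16.3% of cases, against 49.6%, 64.3% and 67.5% of cells without Trdc, although their median depth was higher, at 6349, 4075 and 3834 against 3274, 2417 and 1489 UMIs. Trav genes with a delta name (dv) took 74.8%, 69.5% and 75.9% of all Trav UMIs in cells with Trdc and 12.6%, 10.8% and 13.4% in those without. Thus the Trav UMIs of this class were of 2 kinds, in all 3 libraries. CD8 cells with neither Gzmk nor Havcr2 showed the same split. There the dv genes took 49.2%, 86.8% and 83.3% of Trav UMIs in cells with Trdc, of which library 3 held 3. In those without Trdc they took 11.8%, 7.66% and 13.7%.

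V genes of the invariant lineages were read as well. Trav11, whose product forms the alpha chain of invariant natural killer T cells, had a UMI in 3 of 9903 T cells, its copies Trav11n and Trav11d in 1 and 0, and Traj18, the J segment that goes with it, in 12. Trav11 shared 99.6% of its stretches with Trav11d, so reads of these 2 genes could mostly not be counted and their low numbers are uncertain, whereas Trav11n shared none. None of the cells with these genes had Zbtb16, the transcription factor of that lineage. Trav1, used by mucosal-associated invariant T cells, was found in 127 T cells, 7 of them with Zbtb16. Trbv29, a beta gene of invariant natural killer T cells, was assigned in 3.35%, 2.91% and 4.03% of Cd4- Cd8- cells and 3.08%, 3.39% and 1.49% of CD4 Foxp3- cells, which overlapped.

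Havcr2+ and Gzmk+ Havcr2- CD8 cells were then compared in the same way. Of 54 V genes tested, 22 passed, 21 lower and 1 higher in Havcr2+ cells, where 8.14% of all 10107 genes passed, 2.89% lower and 5.25% higher. The median log2 difference over the 54 V genes was -0.92, beside 0 over all genes. Most of these calls depended on how the spread was estimated. Only 2 residual degrees of freedom remained and the fit drew the spread of every gene from the shared trend. In a fit over all 6 classes, chosen after seeing the data, 5 V genes passed, while DESeq2 called 2. Library 3 gave only 16 Havcr2+ cells, and without it 15 genes passed. Without library 1 the number was 6, and without library 2 it was 9. Trav3-3 was among the lower genes, although its share of assigned cells in library 2 was higher in Havcr2+ cells. Trbv19 and Trav3-1 were not among the 22 genes that passed. The 1 higher gene was a Trav gene and was not higher in every library.

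Trbv13-3 and Trbv16 had the smallest adjusted p-values of the lower genes. Trbv16 was at 16.2, 39.8 and 0 CPM in Havcr2+ cells and 74.2, 92.0 and 215 CPM in Gzmk+ Havcr2- cells (log2 -1.76 ± 0.19, adjusted p = 8.17e-18, edgeR), and passed also with DESeq2 (adjusted p = 0.0486) and over 6 classes (adjusted p = 0.0334, edgeR). Trbv13-3 was at 24.5, 49.7 and 34.4 against 165, 88.6 and 85.2 CPM (log2 -1.75 ± 0.19, adjusted p = 5.90e-18, edgeR), with adjusted p = 0.0230 over 6 classes but 0.0827 with DESeq2 and, without library 1, 0.254 at a log2 difference of -0.89. For both genes the groups did not overlap. Macrophage genes were higher in Havcr2+ cells in 5 of 5 cases and dendritic cell genes in 3 of 4, with macrophage sums of 90.8, 6226 and 0 CPM against 17.4, 2524 and 36.3 CPM. Jchain, a plasma cell gene, was lower, at 268, 8.13 and 0 against 3142, 1094 and 0 CPM. These moved with the V genes, and their part was not tested.

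What the cells of the leading pairs expressed besides V genes was asked by comparing them with all other cells of the same class that had both V genes assigned. The test could use libraries 1 and 2, where the pair had at least 10 cells, and receptor genes were left out of the reading. In CD8 cells the pairs were Trav3-1 with Trbv19 (149 cells against 500) and Trav3-3 with Trbv5 (57 against 601). The 500 include 73 cells assigned Trav12-2 with Trbv19, and many CD8 cells of library 1 had UMIs of both alpha genes. The 2 sides may therefore share cells of 1 kind. Only 1 residual degree of freedom remained, and the spread of a gene was mostly drawn from the shared trend. In all, 285 genes were higher (2.99%) and 333 lower (3.5%) of 9523, together 6.49%. Of 21 genes listed for T cell states, a list chosen with earlier results of these data known, 8 were higher and 6 lower.

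The leading pair cells had higher levels of genes for inhibitory receptors and of Prf1, but not of the granzyme genes on the list. Havcr2 was at 167 and 152 CPM in the pair cells of libraries 1 and 2 and at 78.8 and 70.1 CPM in the others (log2 1.10 ± 0.14, adjusted p = 0.00238, edgeR). Pdcd1, encoding the inhibitory receptor PD-1, was at 812 and 769 against 489 and 323 CPM (log2 0.98, adjusted p = 0.00326, edgeR). Prf1, encoding perforin, was at 260 and 207 against 137 and 82.1 CPM (log2 1.11, adjusted p = 0.00337, edgeR). Lag3, Cd200, Cxcr6 and Ifng were higher as well, by 0.67 to 0.91 on the log2 scale. In every one of these genes both libraries were higher. Gzmb, encoding granzyme B, did not pass, at 312 and 126 against 311 and 421 CPM (log2 -0.74, adjusted p = 0.21, edgeR), and was lower in library 2, at 0.300 times the level of the others (counting interval 0.228 to 0.389).

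Mki67, a marker of dividing cells, was at 130 and 162 CPM in the pair cells and 41.8 and 56.1 CPM in the others (log2 1.59 ± 0.14, adjusted p = 0.000507, edgeR). Genes of recirculating and less differentiated T cells were lower. S1pr1, a receptor for leaving tissue, was at 16.5 and 4.22 against 135 and 42.0 CPM (log2 -3.06 ± 0.21, adjusted p = 0.000137, edgeR), although the value of library 2 rests on 2 UMIs. Klf2 was at 131 and 67.5 against 452 and 228 CPM (log2 -1.78, adjusted p = 0.000242, edgeR) and Tcf7 at 10.6 and 19.0 against 97.4 and 58.0 CPM (log2 -2.71, adjusted p = 0.00183, edgeR). Gzmk did not pass, at 563 and 375 against 575 and 411 CPM (log2 -0.08, adjusted p = 0.725, edgeR). DESeq2 called 139 genes in place of 618, and the 7 genes Cxcr6, Havcr2, Klf2, Mki67, Pdcd1, S1pr1 and Tcf7 passed in every alternative except the fit without the library block. Immunoglobulin genes were among the lowest in the pair cells, with Jchain at 223 CPM against 4393 CPM in library 1, and summed macrophage genes were at 18.1 and 1804 against 39.9 and 3667 CPM, and their part was not tested.

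In CD4 Foxp3- cells the pairs were Trav9-1 with Trbv5 (12 cells against 454) and Trav5-4 with Trbv1 (33 against 636), so the sums were shallow. With 1 residual degree of freedom the fit drew the spread of every gene from the shared trend, so the p-values below do not rest on the spread of the gene itself. Of 8320 genes 31 were higher (0.373%) and 65 lower (0.781%), together 1.15%, and of the 21 listed genes 5 were higher and 8 lower. Gzmk was at 227 and 556 CPM in the pair cells and 124 and 66.5 CPM in the others (log2 2.17 ± 0.32, adjusted p = 2.75e-09, edgeR). Cxcr6, a chemokine receptor of tissue T cells, was at 849 and 448 against 374 and 113 CPM (log2 1.58 ± 0.28, adjusted p = 2.70e-06, edgeR). Havcr2 was at 258 and 108 against 31.8 and 35.6 CPM (log2 2.29, adjusted p = 8.78e-06, edgeR). Both libraries were higher for each of the 3 genes, and for Lag3. Ifng also passed (log2 1.32, adjusted p = 0.00149, edgeR), but only library 2 was higher, at 795 against 176 CPM. In library 1 Ifng was at 212 against 218 CPM. Il10 did not pass and ran in opposite directions. It was 2.44 times the level of the others in library 1 (counting interval 1.45 to 3.87) and 0.299 times in library 2 (0.0613 to 0.881).

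Ccr7, a receptor for homing to lymph nodes, was at 106 and 15.4 CPM in the pair cells and 472 and 276 CPM in the others (log2 -2.89 ± 0.42, adjusted p = 2.42e-09, edgeR), with 7 and 2 UMIs in the pair cells. Tcf7 had 1 and 2 UMIs there, which is 0.143 times (counting interval 0.00361 to 0.803) and 0.154 times (0.0185 to 0.559) the level of the others in libraries 1 and 2. Il21, the cytokine gene the study is about, had 0 UMIs in the 12 pair cells of library 1 and 1 in the 33 of library 2, against 137 and 286 UMIs in the others. The ratio in library 2 was 0.107 (interval 0.00270 to 0.600), and in library 1 a ratio of up to 1.14 remained within counting error. Il21 passed in the fit (adjusted p = 0.00418, edgeR), and DESeq2 gave it no adjusted p. The study reported high Il21 in cells of highly expanded clonotypes, defined by receptor sequence. Whether the pair cells belong to those clonotypes was not tested, since their CDR3 was not read. With DESeq2 21 genes passed in place of 96, and of the 13 listed genes only Ccr7 and Cxcr6 did, with Gzmk and Havcr2 at adjusted p = 0.0592 each. Plasma cell genes summed to 156 and 20.97 CPM in the pair cells against 2270 and 1576 CPM, and dendritic cell genes to 488 and 0 against 88.4 and 46.4 CPM, and their part was not tested.

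Since Il21 marks the CD4 cells the study follows, the V genes of CD4 Foxp3- cells with an Il21 UMI were read too, a description added after the other values were seen. There were 95, 173 and 8 such cells in libraries 1, 2 and 3, and those of library 3 are too few to read. In library 1 the chance that 2 of them shared both V genes was 0.455%, against 0.456% for CD4 Foxp3- cells without Il21. In library 2 it was 0.663% against 0.676%. The receptor sequencing of the study placed most of the larger clonal expansions in T follicular helper and peripheral helper-like cells, the clusters with raised Il21. The chances given here are an unlike measure, since cells were split by an Il21 UMI and compared by V genes without CDR3. Whether Il21+ cells were clonally expanded was therefore not tested. The 70 paired Il21+ cells of library 1 held 61 different pairs and the 109 of library 2 held 80. The most frequent pair among them had 3 of 70 and 4 of 109 cells (Trav7-1 with Trbv13-2 in library 2, a tie in library 1). Trav5-4 was assigned in 2 of 74 and 11 of 122 Il21+ cells (2.70% and 9.02%), against 41 of 461 and 97 of 647 of those without Il21 (8.89% and 14.99%), and the intervals overlapped in both libraries. Median depths were 4246 and 4377 UMIs in Il21+ cells and 3022 and 3297 UMIs in the others.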

How the data were processed

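The authors made 5′ gene expression libraries from the sorted cells with the 10x Genomics kit, and the deposited values are UMI counts per gene and cell, not normalized; the submitters' processing notes name Cell Ranger, Seurat and mm10, with no versions. One library came without a gene list and took the row order of the others. Library totals were 22983991, 55120460 and 3399733 UMIs. Cells with at least 300 UMIs, at most 5000 genes and at most 20% mitochondrial UMIs were kept, with no doublet caller run. UMIs were summed per library and class (at least 10 cells) and tested with edgeR 4.0.16 (quasi-likelihood, TMM, filterByExpr, R 4.3.3), with library as a block since both classes of a library come from the same mice, and p-values adjusted by Benjamini-Hochberg across every gene of a fit; errors of log2 differences are SE from the F statistic. For the pair comparisons Trav, Trbv and other receptor genes were left out of the counts of calls. DESeq2 1.42.0 was an alternative. Shares have exact Clopper-Pearson 95% intervals (scipy 1.17.1) and cover counting error only. The tests were tried on simulated counts first. V genes named were up to 10 past the threshold with the smallest p in each direction, the 5 most used per class and chain, the most frequent gene and pair per class and library, and a fixed list; the pair Trav6-2 with Trbv12-2, Trav12-2 with Trbv19 and the Il21 split were added after values were seen. The members and lists were chosen with earlier results of these data known. Alternatives are given with the closing section. The fit used no column of a sample outside the series. A gene of the receptor complex list that also passed between Foxp3+ and CD4 Foxp3- cells is not reported here.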

Additional observations from a re-analysis of the deposited data

How the results depend on the processing

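The library block decided the most. Without it, 1 V gene passed between CD8 and CD4 Foxp3- cells and 0 in each of the other 3 V gene comparisons and both pair comparisons (edgeR, where 17, 5, 12, 10, 314 and 452 had an unadjusted p below 0.05). Leaving out 1 library at a time gave 16 to 27 V genes for CD8, 0 to 7 for Foxp3+, 3 to 28 for Cd4- Cd8- and 6 to 15 for Havcr2+ cells. With no filter on low counts the numbers were 36, 9 and 28 for the first 3, and 1046 genes for the CD8 pairs. Without cells with Cd79a, Lyz2 or C1qa they were 33, 8, 21 and 14. DESeq2 called 1 for Foxp3+ and 2 for Havcr2+ cells, and 21 and 139 genes for the CD4 and CD8 pairs. Counting cells with a UMI gave 1 for Foxp3+ and 8 for Havcr2+ cells, a robust spread 6 for Cd4- Cd8- cells, and all 6 classes in the fit 5 for Havcr2+ cells; these last 2 settings were chosen after seeing the data. Without library 1, Trav3-3 and Trbv13-1 turned direction between Havcr2+ and Gzmk+ cells: over the fits that leave out a library Trav3-3 ranged from -1.59 to 0.056 and Trbv13-1 from -1.01 to 0.039 (log2). The causes were not tested. All other V gene calls kept their direction, but few passed throughout. Calls that passed in every alternative except the fit without the library block, fits without 1 library included, were 7 of 21 for CD8 cells. They were 0 of 2 for Foxp3+, 0 of 11 for Cd4- Cd8- and 1 of 22 for Havcr2+ cells.

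The mean chance of sharing both V genes moved to 0.635% with V genes of 2 or more UMIs, 0.680% thinned and 1.63% by family in CD4 Foxp3- cells, to 0.627%, 0.341% and 0.984% in Foxp3+ cells, and to 0.413% (2 or more UMIs) and 1.03% (family) in Cd4- Cd8- cells. For Trav families it was 12.4% in CD8, 8.54% in CD4 Foxp3-, 7.73% in Foxp3+, 7.43% in Cd4- Cd8- and 12.3% in Gzmk+ cells, and Trav in Cd4- Cd8- cells was 3.43% with 2 or more UMIs and 3.44% thinned. For Trbv it was 9.21% (2 or more UMIs) and 15.9% (family) in CD4 Foxp3-, 11.9% (family) in Foxp3+ and 12.7% (family) in Cd4- Cd8- cells. Thinned shares with a Trav UMI were 43.9%, 56.1%, 52.6% and 31.0% in CD8, CD4 Foxp3-, Foxp3+ and Cd4- Cd8- cells, and with a Trbv UMI 59.9%, 65.7%, 62.3% and 41.2%. With 2 or more Cd3 UMIs, 51.9% of Cd4- Cd8- cells had Trav. Trbv13-2 in Foxp3+ cells was 10.05% thinned. Of 144 concentration values 125 moved by less than 1 SD. The CD4 pairs with V genes of 2 or more UMIs were not run, since 1 library had enough cells, and the pair comparisons could not leave out a library, since no residual degrees of freedom remain.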
